A study of Mus musculus with 6 samples.

Results

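The genes described here are 33 components of the basement membrane and of its closest partners, measured in the mouse mammary carcinoma cell line 168FARN with and without knockdown of RKIP. They were chosen by name: 6 chains of type IV collagen (Col4a1 to Col4a6), 5 further collagens of basement membranes (Col7a1, Col8a1, Col8a2, Col15a1, Col18a1), 10 laminin chains (Lama1 to Lama5, Lamb1 to Lamb3, Lamc1, Lamc3), the nidogens Nid1 and Nid2, perlecan (Hspg2), agrin (Agrn), Sparc and Sparcl1, dystroglycan (Dag1), the Fraser complex genes Fras1, Frem1 and Frem2, and the netrins Ntn1 and Ntn4. All 33 had a probe set that carries their symbol alone, out of 22180 genes on the array with such a probe set. Nid1 had 2 such probe sets, of which the one with the higher mean over all arrays was used, and every other member had 1.

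The RKIP knockdown samples (3 arrays) were cells that stably expressed a short hairpin RNA against RKIP, the Raf kinase inhibitor protein encoded by Pebp1, from the retroviral vector pSUPER.retro-puro. The control knockdown samples (3 arrays) were the same line with a hairpin against firefly luciferase, a gene that mouse cells lack, in the same vector. Total RNA of each sample, from independent experiments by the methods of the study, went onto 1 array of the type Affymetrix Mouse Gene 2.0 ST, which carries probes spread over the exons of each transcript. A figure legend of the study gives a single label for the RKIP side of this comparison. Beyond that, the sources used here do not state the number of hairpins, or whether the cells were pools or clones. A property of a hairpin or of a transduced population therefore cannot be told apart from the loss of RKIP.

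Basement membranes are thin sheets of extracellular matrix beneath epithelia and around muscle, nerve and blood vessels. Laminins, each a trimer of an alpha, a beta and a gamma chain, polymerize on the cell surface and bind integrins and dystroglycan, while trimers of type IV collagen form a covalently cross-linked network, and nidogens, perlecan and agrin connect the layers and hold growth factors. In the mammary gland the basement membrane separates the epithelium from the stroma and supports epithelial polarity, and carcinoma cells cross it when they invade.

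Values are log2 intensities as deposited, and changes are RKIP knockdown minus control knockdown on the log2 scale. No basement membrane gene passed the test over all genes (limma with Benjamini-Hochberg adjustment, adjusted p under 0.05). Of the 33 genes 0 were called higher and 0 lower, beside 0.203% of all 22180 genes called higher (45 genes) and 0.0496% called lower (11 genes). Before adjustment, 6 of the 33 (18.2%) had a limma p under 0.05 and higher values in the RKIP knockdown, and 0 had lower ones, beside 5.01% of all genes on the higher side and 5.09% on the lower side. These 6 were Col4a1, Col4a2, Col4a5, Nid2, Sparcl1 and Ntn1, with changes of 0.19 to 0.39, that is 1.14-fold to 1.31-fold. The laminin chains gave none of them. The 33 genes were chosen with earlier results of these data known, so these shares describe the genes and are not a test.

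On 7 of the 33 genes (21.2%) all 3 RKIP knockdown arrays lay above all 3 control arrays, and on 4 (12.1%) all 3 lay below. The same held for 8.67% of all genes on the higher side and 8.67% on the lower side, so the share on the lower side was close to that of all genes. With the arrays centred on their medians 10 of the 33 lay above and 2 below, beside 2395 (10.8%) and 1331 (6.0%) of all 22180 genes. Without control replicate 1, 12 of the 33 lay above, beside 2825 of all 22180 genes (12.7%). Without RKIP knockdown replicate 3, 7 of the 33 lay below, beside 3234 of all 22180 genes (14.6%). The genes above were, on all arrays, the 6 just named and Col8a1, and the genes below were Col8a2, Lama5, Lamc1 and Dag1. The median change over the 33 genes was 0.05, beside a median of −0.01 over all genes, with 20 of 33 above 0. No member reached a 1.5-fold change in either direction, beside 116 of all 22180 genes that did.

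**Figure D1:**
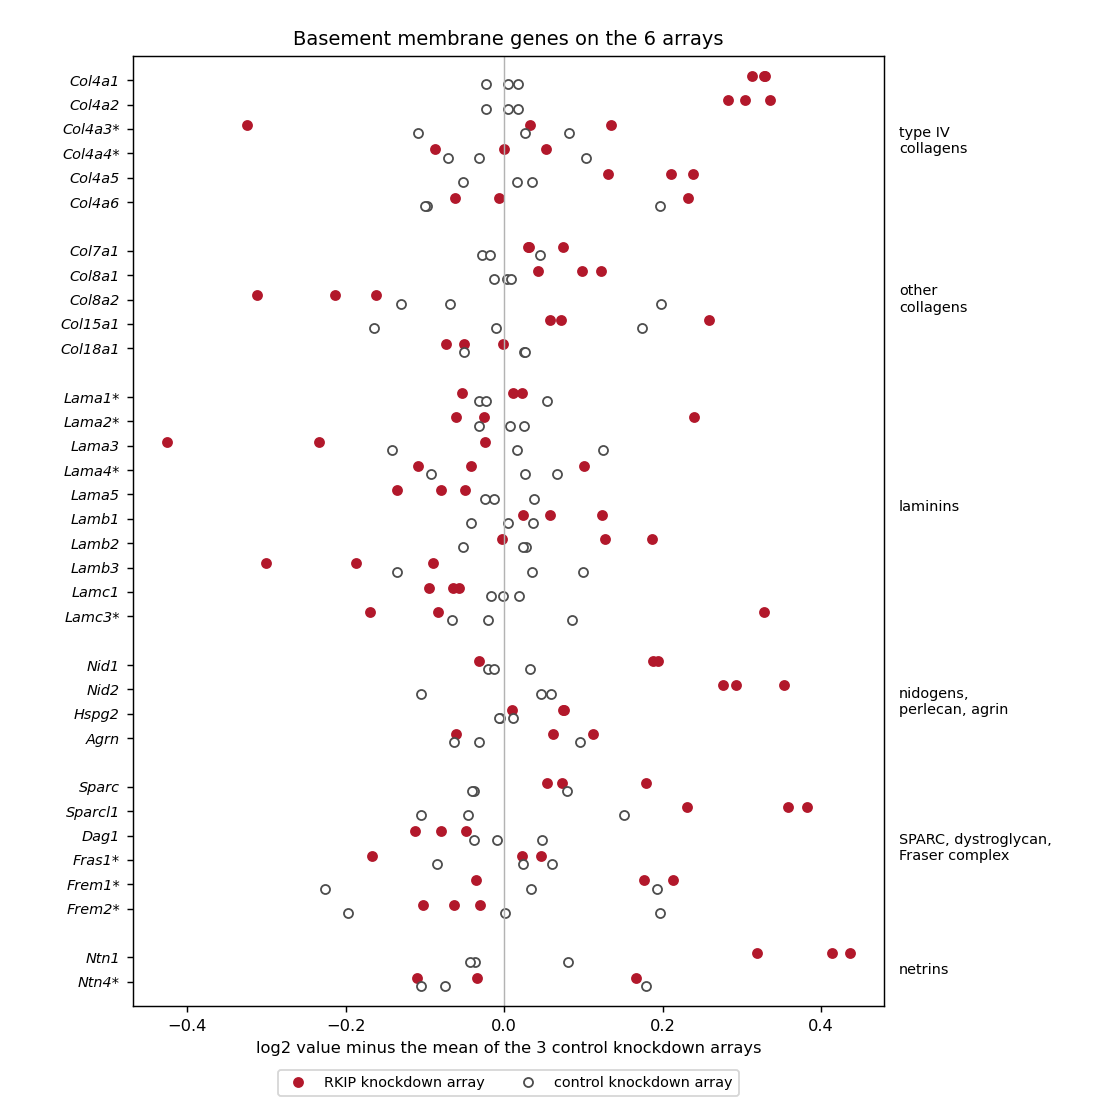
Values of the 33 basement membrane genes on each array, as the log2 value minus the mean of the 3 control knockdown arrays of that gene (x axis). Red points are the 3 RKIP knockdown arrays and open points the 3 control knockdown arrays, genes are grouped by role, and an asterisk marks the 10 genes whose mean lies at or below the background measure of 5.33. The red points of Col4a1, Col4a2, Nid2 and Ntn1 lie more than 0.2 to the right of all open points, while those of most laminin chains mix with them.

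The cells were checked by their markers and by the targeted gene. Pebp1 had a log2 value of 6.88 ± 0.27 in the RKIP knockdown and 7.71 ± 0.01 in the control knockdown (SD, n = 3 arrays each), a change of −0.83 (standard error 0.13, limma adjusted p = 0.0996). With the mean of all probe sets of Pebp1 the change was −0.33. Background was read from 1105 olfactory receptor genes, which these cells should not express, as the 95th percentile of their mean values, 5.33. Of 14 mammary epithelial markers 8 lay above it, among them Krt8 at 10.3 in the RKIP knockdown and 10.4 in the control knockdown. The others of these 8 had means over all arrays of 5.44 (Cdh1) to 6.17 (Cldn3). The median change of the 14 was −0.08, with 3 above 0 (Epcam, Cdh1 and Cldn4) and 11 below. None was called. At an unadjusted limma p under 0.05 0 were higher and 2 lower, beside 5.01% of all genes higher and 5.09% lower. The 2 were Krt18 (−0.35) and Esrp1 (−0.30), both without overlap between groups, and Esrp1 lay below background. The mean level of the 14 markers was 5.39 to 5.45 in the RKIP knockdown and 5.49 to 5.54 in the control knockdown. Their part in the results was not tested. Epcam lay below background and Cdh1, the gene of E-cadherin, close to it, with 5.55 in the RKIP knockdown and 5.32 in the control knockdown, while the mesenchymal markers Vim and Fn1 read 13.4 in the RKIP knockdown against 13.5 and 13.3 in the control knockdown. Array medians over genes lay at 5.72 to 5.76 in the RKIP knockdown and 5.76 to 5.77 in the control knockdown, and no array was identical to another. Since RMA gives every array about the same distribution, a shift shared by most transcripts would not be seen.

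Type IV collagen is the main collagen of basement membranes. The alpha1 and alpha2 chains occur in nearly all of them, while the alpha3, alpha4, alpha5 and alpha6 chains are restricted to certain tissues. Col4a1 read 9.64, 9.66 and 9.66 on the RKIP knockdown arrays and 9.31, 9.35 and 9.34 on the control arrays. The groups were separated by 0.30, against a range of 0.02 within the RKIP knockdown and 0.04 within the control knockdown. The change was 0.32, or 1.25-fold (standard error 0.05, 95% interval 0.19 to 0.45, limma adjusted p = 0.109).

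Col4a2, whose product joins that of Col4a1 in the same trimer, read 8.81, 8.84 and 8.87 on the RKIP knockdown arrays and 8.54, 8.55 and 8.51 on the control arrays. All knockdown values again lay above all control values, with a gap of 0.26, and the change was 0.31, or 1.24-fold (standard error 0.06, limma adjusted p = 0.127). The difference between Col4a1 and Col4a2 within an array was 0.83, 0.82 and 0.79 in the RKIP knockdown and 0.77, 0.80 and 0.83 in the control knockdown. Their changes thus differed by 0.02 (standard error 0.02), less than the spread between arrays, and the groups overlapped in this difference. The SD within groups was 0.016 for Col4a1 and 0.024 for Col4a2, beside a median of 0.0811 over all genes above background.

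Col4a1 and Col4a2 lie head to head on chromosome 8, and their starts are shown here because these neighbours had nearly the same change. They were picked for display after their values were seen, and whether the shared start has a part in the changes was not tested. In the RefSeq annotation of GRCm38.p6, Col4a1 spans chr8:11198423-11312889 on the minus strand and Col4a2 chr8:11312805-11449287 on the plus strand, so that the records share 85 bases at their 5′ ends. Each window below runs from 250 bases before to 50 bases after a transcript start of RefSeq (GRCm38.p6), read 5′ to 3′ on the strand of the gene. The start used for Col4a1 (chr8:11312826) lies inside its gene record, 21 bases from that used for Col4a2 (chr8:11312805). Capitals mark matches, on either strand, to the letters GGGCGG of a GC box and to a CCAAT box.
Col4a1 (chr8:11312777-11313076, minus strand): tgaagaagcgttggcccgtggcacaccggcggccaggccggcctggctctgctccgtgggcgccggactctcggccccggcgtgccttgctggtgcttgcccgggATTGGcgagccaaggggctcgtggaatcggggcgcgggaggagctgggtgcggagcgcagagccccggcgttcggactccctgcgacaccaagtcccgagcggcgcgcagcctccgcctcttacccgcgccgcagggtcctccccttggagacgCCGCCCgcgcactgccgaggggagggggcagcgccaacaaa
Col4a2 (chr8:11312555-11312854, plus strand): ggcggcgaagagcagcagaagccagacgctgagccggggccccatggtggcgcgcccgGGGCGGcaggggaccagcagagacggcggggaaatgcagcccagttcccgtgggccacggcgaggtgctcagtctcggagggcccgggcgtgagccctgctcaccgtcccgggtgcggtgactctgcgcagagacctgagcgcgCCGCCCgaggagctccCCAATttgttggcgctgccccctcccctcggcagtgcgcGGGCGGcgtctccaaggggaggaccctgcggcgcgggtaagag
The windows share 78 bases, read in opposite directions, and the GC box at chr8:11312812-11312817 is the same in both. The Col4a1 window held 1 GC box and 1 CCAAT box and the Col4a2 window 3 GC boxes and 1 CCAAT box. Of all 32851 promoter windows of this length, 35.7% held a GC box and 37.4% a CCAAT box. The letters TATAAA of a TATA box are in 13.6% of windows and the letters TGANTCA of an AP-1 site, N being any base, in 7.8%, and both, searched on both strands, were in neither window. A match is a stretch of letters and not a measured site.

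Col4a5 and Col4a6 are the other pair of neighbours measured above background, and lie head to head on the X chromosome. Col4a5 read 8.22, 8.14 and 8.25 in the RKIP knockdown and 7.96, 8.03 and 8.05 in the control knockdown. The groups did not overlap, with a gap of 0.10, and the change was 0.19, or 1.14-fold (standard error 0.06, limma adjusted p = 0.387). Col4a6 read 5.61, 5.56 and 5.85 in the RKIP knockdown and 5.82, 5.52 and 5.52 in the control knockdown, values that overlap and lie near background. Its change was 0.05 (95% interval −0.22 to 0.33), and the changes of Col4a5 and Col4a6 differed by 0.14 (standard error 0.14), within the spread between arrays.
Their windows are shown beside those of the pair on chromosome 8, with the same marks.
Col4a5 (chrX:141475169-141475468, plus strand): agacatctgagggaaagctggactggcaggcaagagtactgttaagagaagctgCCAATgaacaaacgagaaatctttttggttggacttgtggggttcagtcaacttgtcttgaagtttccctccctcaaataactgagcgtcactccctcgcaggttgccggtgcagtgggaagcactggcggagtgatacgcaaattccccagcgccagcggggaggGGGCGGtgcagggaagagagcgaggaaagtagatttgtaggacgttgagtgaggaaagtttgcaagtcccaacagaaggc
Col4a6 (chrX:141474027-141474326, minus strand): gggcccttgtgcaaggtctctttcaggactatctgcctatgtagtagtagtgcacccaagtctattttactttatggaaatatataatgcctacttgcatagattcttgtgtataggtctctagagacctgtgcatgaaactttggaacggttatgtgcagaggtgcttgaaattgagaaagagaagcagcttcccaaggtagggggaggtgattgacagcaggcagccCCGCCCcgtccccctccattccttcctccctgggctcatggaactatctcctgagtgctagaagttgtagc
Here the windows do not overlap, the gene records lie 1274 bases apart and the starts used for the windows 1343 bases apart. Each held 1 GC box, and that of Col4a5 held 1 CCAAT box, with no match to the TATA box or AP-1 letters in either. The share of G and C was 74.0% and 73.7% in the windows of Col4a1 and Col4a2 and 52.7% and 48.3% in those of Col4a5 and Col4a6, beside a median of 52.7% over all windows.

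The kidney and inner ear chains Col4a3 and Col4a4, which also neighbour each other, lay below background in both groups. Their changes of −0.05 and −0.01 carry little information at that level.

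**Figure D2:**
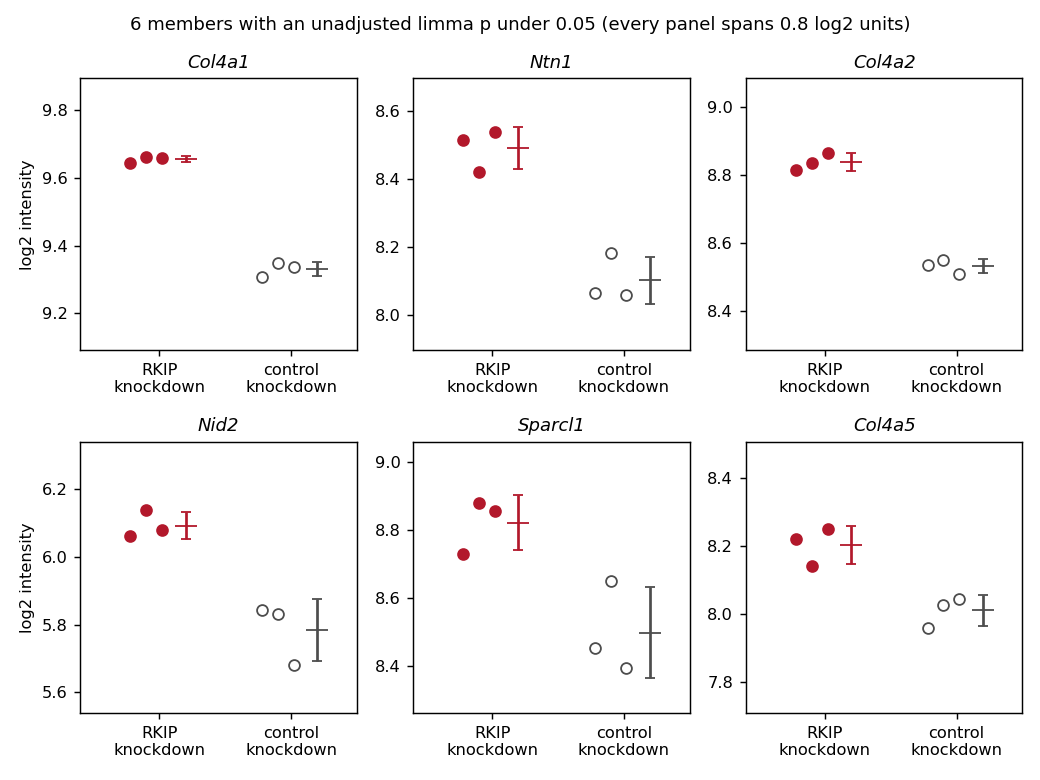
Log2 intensity (y axis) of the 6 members with an unadjusted limma p under 0.05, with the 3 RKIP knockdown arrays on the left (red) and the 3 control knockdown arrays on the right (open) of each panel. Bars give mean and SD over 3 arrays, and every panel spans 0.8 log2 units, so that distances can be compared between panels. Col4a1 and Col4a2 have the tightest groups, and the control arrays of Sparcl1 spread over 0.26.

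Among the other basement membrane collagens none had an unadjusted p under 0.05. Col8a1, a short-chain collagen of vessel walls and of the corneal endothelial membrane, read 9.84, 9.76 and 9.82 in the RKIP knockdown and 9.71, 9.72 and 9.73 in the control knockdown. The groups were apart by 0.03, and the change was 0.09, or 1.06-fold (standard error 0.06, limma adjusted p = 0.649). Col8a2, its partner chain, read 5.22, 5.37 and 5.32 in the RKIP knockdown and 5.40, 5.73 and 5.47 in the control knockdown. The knockdown values lay below all control values by 0.03, with a change of −0.23 (standard error 0.10, limma adjusted p = 0.499), at a level close to background. Col7a1, which forms the anchoring fibrils of skin, Col15a1, a collagen beneath capillaries and muscle fibres, and Col18a1, the precursor of endostatin, had changes of 0.05, 0.13 and −0.04 with overlapping groups. For Col18a1, well above background at 9.36 in the RKIP knockdown and 9.41 in the control knockdown, the 95% interval of the change was −0.18 to 0.10.

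No laminin chain had an unadjusted p under 0.05, and the median change of the 10 chains was −0.01. The chains with the highest levels, means over all arrays of 8.18 to 11.1, were Lama5, Lamb1, Lamb2 and Lamc1. They are chains of the laminins that occur in most adult basement membranes. Lamb1 read 11.13, 11.17 and 11.23 in the RKIP knockdown and 11.11, 11.07 and 11.14 in the control knockdown. These values overlapped, with a change of 0.07 (95% interval −0.08 to 0.21, limma adjusted p = 0.741).

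Lamc1, the gamma chain shared by most laminins, read 10.89, 10.90 and 10.86 in the RKIP knockdown and 10.94, 10.97 and 10.95 in the control knockdown. All knockdown values lay below the control values, by 0.04, and the change was −0.07, or 0.951-fold (standard error 0.05, limma adjusted p = 0.696). Lama5, the alpha chain that binds epithelial and endothelial integrins, read 9.75, 9.80 and 9.83 in the RKIP knockdown and 9.92, 9.87 and 9.86 in the control knockdown. Here too the groups were apart, by 0.02, with a change of −0.09 (standard error 0.06, limma adjusted p = 0.657). Lamb2 had a change of 0.10 with overlapping groups.

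Lama3 and Lamb3 encode chains of the epithelial laminin of hemidesmosomes. Lama3 had a change of −0.23 (95% interval −0.51 to 0.06) and Lamb3 one of −0.19 (95% interval −0.40 to 0.02), and in both the groups overlapped. The values of Lama3 ran from 5.20 to 5.60 in the RKIP knockdown and from 5.49 to 5.75 in the control knockdown, close to background. Lamb3 lay above background, with means of 6.24 in the RKIP knockdown and 6.43 in the control knockdown. Lama1, Lama2, Lama4 and Lamc3 lay below background, with changes between −0.02 and 0.05. The trimers that the chains form were not measured.

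Of the linkers between the laminin and collagen networks, Nid2 had the largest change, at a mean over all arrays of 5.94 against a background of 5.33. It read 6.06, 6.14 and 6.08 in the RKIP knockdown and 5.84, 5.83 and 5.68 in the control knockdown. All knockdown values lay above the control values, by 0.22, and the change was 0.31, or 1.24-fold (standard error 0.07, limma adjusted p = 0.218). Nid1, the related nidogen, read 5.67, 5.66 and 5.45 in the RKIP knockdown and 5.46, 5.47 and 5.51 in the control knockdown, with a change of 0.12 and overlapping groups. The probe set of Nid1 that was not used had a mean of 5.21, below background, and a change of 0.03.

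Hspg2, the core protein of perlecan, a heparan sulfate proteoglycan, read 10.79, 10.79 and 10.73 in the RKIP knockdown and 10.73, 10.71 and 10.71 in the control knockdown. The lowest knockdown array lay within the control range, and the change was 0.05 (95% interval −0.08 to 0.19, limma adjusted p = 0.789). Agrn, a proteoglycan that organizes the neuromuscular junction, had a change of 0.04 (95% interval −0.14 to 0.22).

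Sparc and Sparcl1 encode related secreted proteins that bind collagen. Sparcl1 read 8.73, 8.88 and 8.86 in the RKIP knockdown and 8.45, 8.65 and 8.39 in the control knockdown. The groups did not overlap, with a gap of 0.08 between the lowest knockdown and the highest control array, and the change was 0.32, or 1.25-fold (standard error 0.09, limma adjusted p = 0.309). Sparc read 11.45, 11.34 and 11.32 in the RKIP knockdown and 11.35, 11.23 and 11.23 in the control knockdown. These values overlapped, and the change was 0.10 (95% interval −0.06 to 0.26, limma adjusted p = 0.657).

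Dag1, dystroglycan, a laminin receptor at the cell surface, read 10.96, 10.93 and 10.99 in the RKIP knockdown and 11.00, 11.03 and 11.09 in the control knockdown. The knockdown values lay below all control values by 0.01, with a change of −0.08, or 0.946-fold (standard error 0.06, limma adjusted p = 0.686). Fras1, Frem1 and Frem2, which anchor the epidermis to the dermis in the embryo, lay below background, with changes of −0.03, 0.12 and −0.07.

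Ntn1 had the largest change of the 33 genes. Netrin-1 is a laminin-related guidance cue that is also known as a ligand of dependence receptors. Ntn1 read 8.51, 8.42 and 8.54 in the RKIP knockdown and 8.06, 8.18 and 8.06 in the control knockdown. All knockdown values lay above the control values, by 0.24, and the change was 0.39, or 1.31-fold (standard error 0.07, 95% interval 0.23 to 0.55, limma adjusted p = 0.118). Ntn4, a netrin that binds laminins and disturbs their polymerization, lay below background with a change of 0.01.

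**Figure D3:**
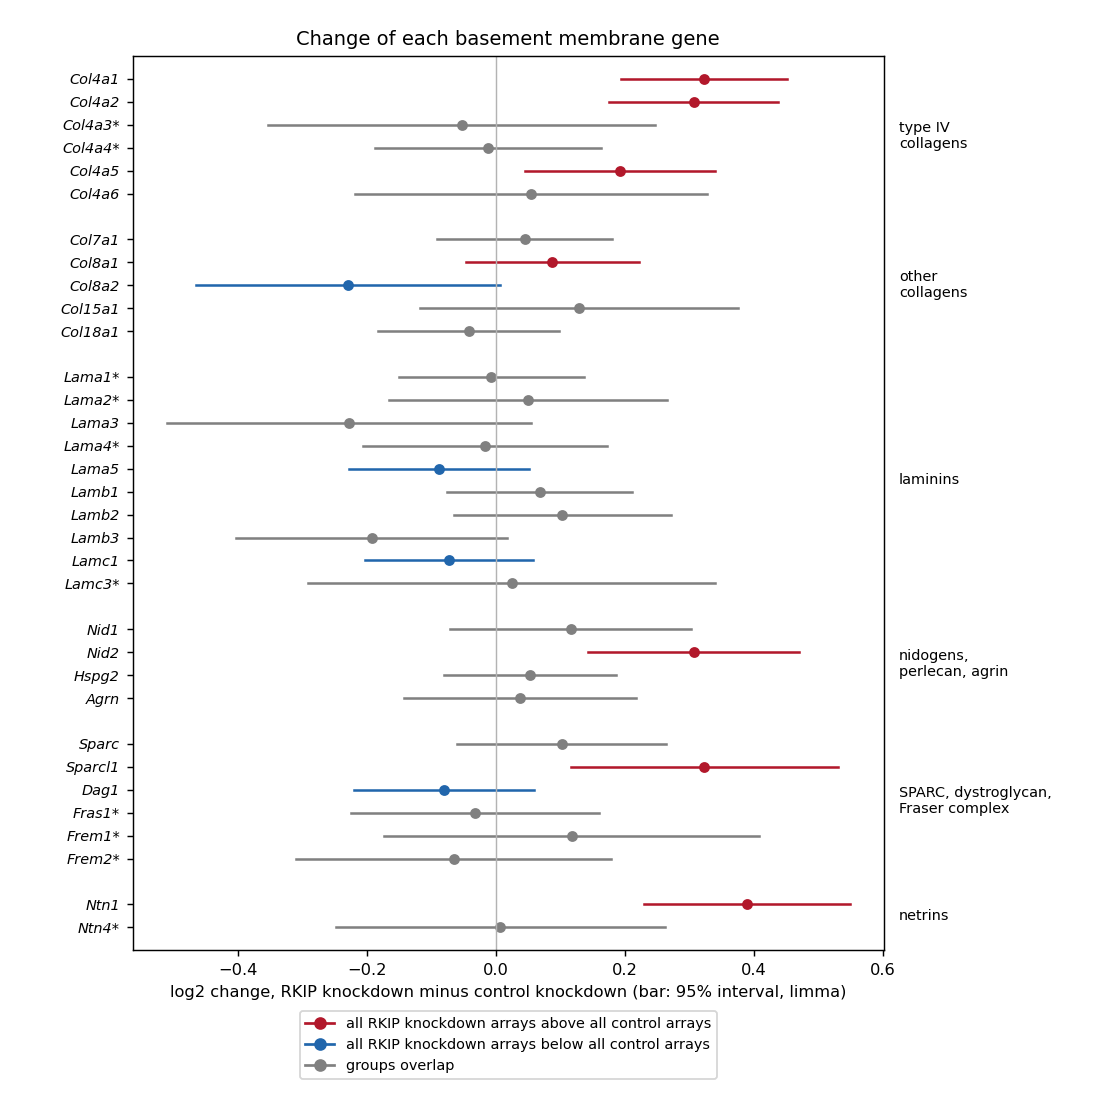
Log2 change of each member (points, x axis, RKIP knockdown minus control knockdown) with its 95% interval from limma (bars). Red marks the 7 genes whose RKIP knockdown arrays all lie above the control arrays, blue the 4 whose knockdown arrays all lie below, grey the 22 whose groups overlap, and an asterisk genes at or below background. The intervals of Col4a1, Col4a2, Col4a5, Nid2, Sparcl1 and Ntn1 do not reach 0, while those of all 10 laminin chains include it.

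By limma's adjusted p these genes lay between 0.109 and 0.387, and the outcome depended on how the variance and the low genes were treated. With the 33.3% of genes of lowest signal removed, 7 of the members among them, the adjusted p was 0.0328 for Col4a1, 0.0393 for Ntn1 and 0.0402 for Col4a2, so that 3 members passed. With a variance trend and robust fitting, 4 passed, Col4a1 (adjusted p = 0.000643), Ntn1 (0.00261), Col4a2 (0.00387) and Sparcl1 (0.0217). With analysis of variance and the same adjustment, 1 passed, Col4a1 (adjusted p = 0.0494), while Mmp2, Col3a1, Col6a3 and Acta2, genes outside the 33 that limma called, missed the threshold (adjusted p = 0.162, 0.0811, 0.0811 and 0.107). Without any 1 of the 6 arrays none passed by limma, and the changes of Col4a1 then stayed between 0.31 and 0.33 and those of Ntn1 between 0.37 and 0.43.

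**Figure D4:**
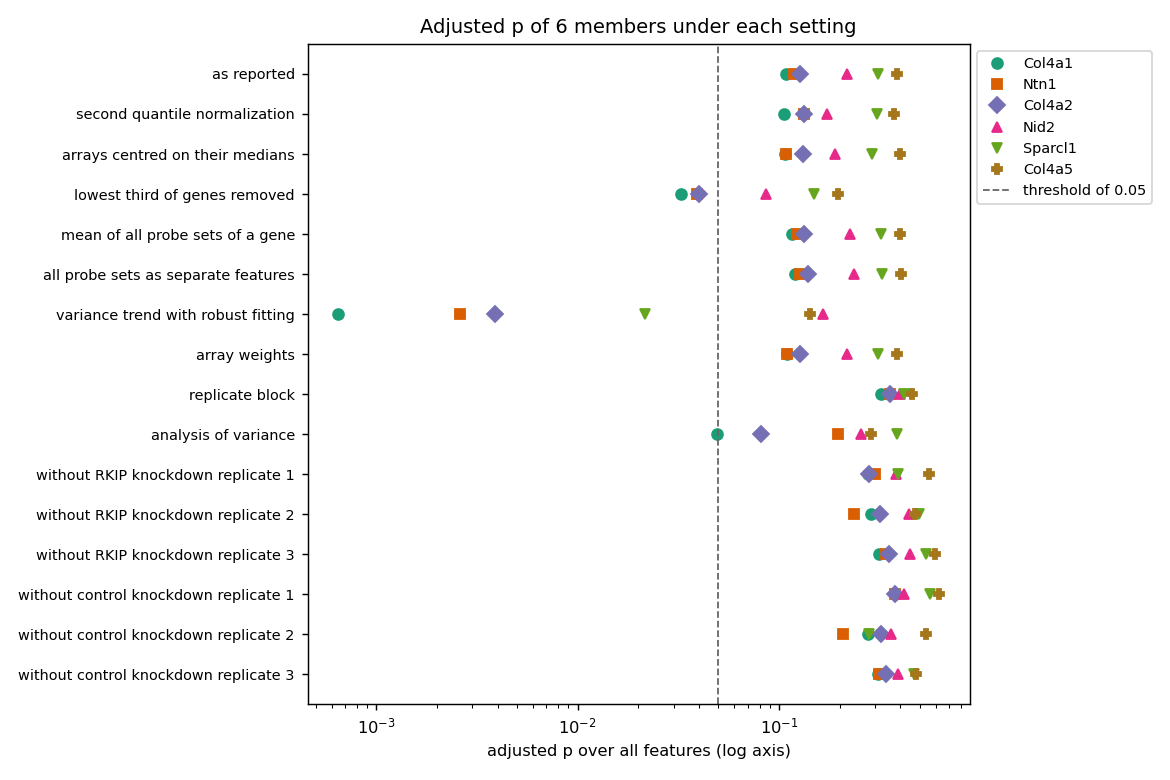
Adjusted p over all features (x axis, log scale) of the 6 members with the lowest unadjusted p, under each processing or test (rows). Each symbol is a gene and the dashed line is the threshold of 0.05, and the 4 symbols left of it in the row of the variance trend are Col4a1, Ntn1, Col4a2 and Sparcl1.

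The genes around these components were described by lists of pathway partners. Counts before adjustment, here and in the marker lists, stand beside 5.01% of all genes higher and 5.09% lower at an unadjusted limma p under 0.05. Among 19 further basement membrane components none was called, with 1 gene higher and 1 lower at an unadjusted limma p under 0.05 and a median change of −0.07. Tinagl1, a matricellular protein of basement membranes, averaged 9.51 in the RKIP knockdown and 9.87 in the control knockdown (change −0.36, limma adjusted p = 0.194). Fbln2, a fibulin that binds nidogen and laminin, averaged 8.55 in the RKIP knockdown and 8.31 in the control knockdown (change 0.24, limma adjusted p = 0.266), and Smoc1 had a change of −0.12. These genes were named because their groups did not overlap, as in 1 gene of the list above and 2 below, beside 8.67% of all genes on each side.

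None of 21 basement membrane receptors was called, with 2 higher and 3 lower before adjustment and a median change of 0.01. The collagen receptor subunit Itga2 had a change of 0.39 (limma adjusted p = 0.142) at levels below background, and the syndecan Sdc2 one of 0.30 (adjusted p = 0.184). Itga8, a subunit that binds nephronectin, had a change of −0.45 (limma adjusted p = 0.109) and the laminin receptor subunit Itga7 one of −0.26 (adjusted p = 0.257). These 4 were named as the largest changes without overlap. Of the 21 receptors 2 lay above without overlap and 3 below, beside 8.67% of all genes on each side. Itgb1, the beta subunit that pairs with all 3 integrin alpha chains named here, averaged 11.5 in the RKIP knockdown and 11.4 in the control knockdown. Of 8 netrin receptors none was called, and 1 lay above without overlap and 0 below. It was Unc5b, a dependence receptor of netrin-1, with a change of 0.19 (limma adjusted p = 0.405).

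The list of folding and cross-linking of type IV collagen held 21 measured genes, among them enzymes that also act on other collagens. It had 0 called, 3 higher and 0 lower before adjustment and a median of 0.01. Its largest changes without overlap were those of the prolyl hydroxylase subunit P4ha1 (0.19), the lysyl oxidase Loxl1 (0.19) and the lysyl hydroxylases Plod1 (0.16) and Plod2 (0.16), with limma adjusted p between 0.363 and 0.548. In this list 8 genes lay above without overlap and 2 below, beside 8.67% of all genes on each side. Of 9 genes that glycosylate dystroglycan none was called and none had an unadjusted p under 0.05.

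Of 21 proteases of the basement membrane and their inhibitors 1 rose and 0 fell, with 7 higher and 3 lower before adjustment and a median of 0.01. Mmp2, a gelatinase that cuts denatured and type IV collagen, rose to 8.67 ± 0.08 in the RKIP knockdown, against 7.98 ± 0.11 in the control knockdown (SD, n = 3 arrays each, change 0.68, standard error 0.08, limma adjusted p = 0.0419). Mmp9, also a gelatinase, went the other way, with a change of −0.32 (limma adjusted p = 0.377). The plasminogen activators Plat and Plau had changes of 0.62 and 0.49 and Bmp1, a procollagen proteinase, one of 0.39 (limma adjusted p = 0.0907, 0.256 and 0.180). The inhibitor Timp4 had a change of −0.56 (limma adjusted p = 0.0735). With each array left out in turn the adjusted p of Mmp2 was 0.113 to 0.192, above the threshold each time.

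Collagens outside the basement membrane are set beside these genes for scale. Among 11 fibrillar chains Col3a1 was called, with a change of 1.03 (standard error 0.07, limma adjusted p = 0.0173), Col1a1, Col5a1 and Col5a2 had changes of 0.69, 0.46 and 0.23, and Col11a2 one of −0.12. Among 6 type VI chains Col6a3 was called, with a change of 1.70 (standard error 0.09, limma adjusted p = 0.00657), and Col6a1 had a change of 0.37. The medians were 0.10 over the fibrillar chains and 0.15 over the type VI chains, against 0.05 over the 33 basement membrane genes, a difference that was not tested. With single arrays left out the adjusted p of Col6a3 was above the threshold without RKIP knockdown replicate 2 (0.0656) or 3 (0.111), and that of Col3a1 without any array but control replicate 2 (0.0859 to 0.111).

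**Figure D5:**
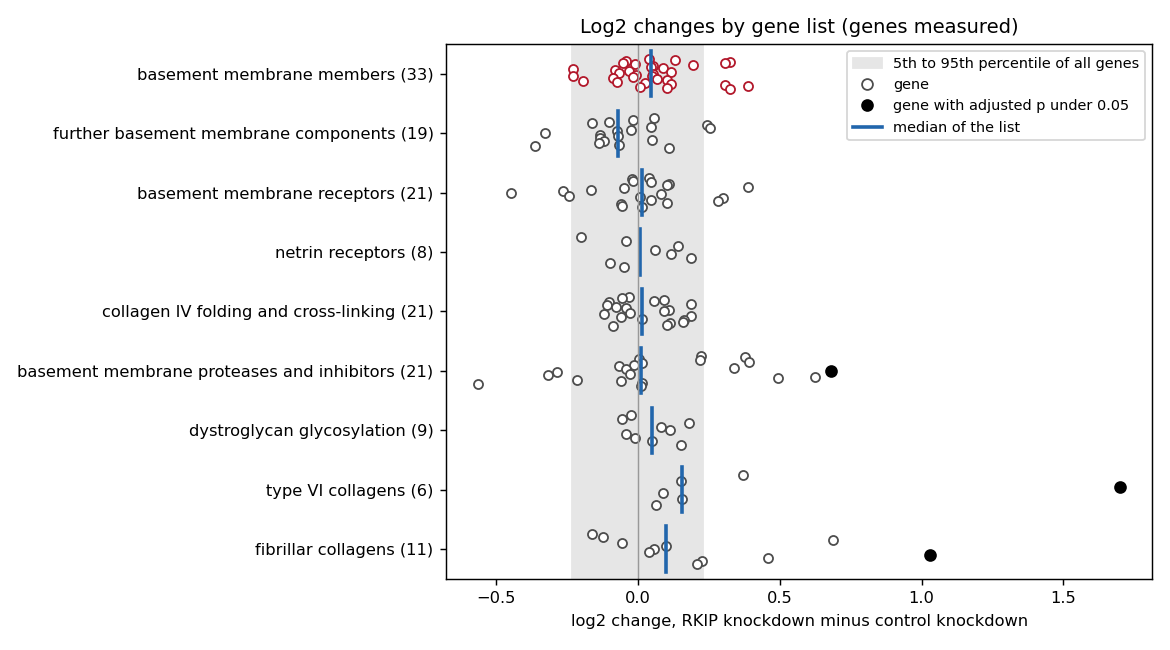
Log2 change (x axis, RKIP knockdown minus control knockdown) of each measured gene of the basement membrane list (red, top row), of the pathway lists and of the other collagens, with the number of genes in brackets. Blue lines are list medians, black points the genes with an adjusted p under 0.05 (Mmp2, Col6a3 and Col3a1), and the grey band runs from the 5th to the 95th percentile of all genes (−0.23 to 0.23). Of the basement membrane genes Col4a1, Col4a2, Nid2, Sparcl1 and Ntn1 lie to the right of the band.

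Markers of other cell types that lay down basement membrane were read beside these values. Of 14 fibroblast and mesenchymal markers 4 were higher and 0 lower before adjustment, and their mean level was 8.15 to 8.17 in the RKIP knockdown and 8.01 to 8.07 in the control knockdown. Their median change was 0.03, with 8 above 0 and 6 below. Without overlap between groups, Snai2, Pdgfra, Pdgfrb, Zeb1 and Fn1 had changes of 0.89, 0.35, 0.32, 0.22 and 0.05, and Vim and S100a4 changes of −0.09 and −0.07. Dcn, Lum, Thy1, Fap and Cdh2 lay below background. Of 10 smooth muscle and pericyte markers Acta2 rose (change 1.57, limma adjusted p = 0.0173, and 0.0280 to 0.111 with each array left out, under the threshold only without control replicate 1), with a list median of 0.00 and means of 6.76 to 6.80 in the RKIP knockdown and 6.59 to 6.69 in the control knockdown. Their part in the values of the basement membrane genes was not tested. Of 10 endothelial markers 2 lay above background, of 9 macrophage and leukocyte markers 3, and none of either list was called. In bulk RNA a larger share of a cell type and more RNA per cell cannot be told apart.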

How the data were processed

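Affymetrix Mouse Gene 2.0 ST arrays held RNA of 3 RKIP knockdown and 3 control knockdown samples of 168FARN cells. The authors deposited log2 intensities for 41345 probe sets, made by the submitters' processing notes with RMA in the oligo package (version not given in the sources used here). RMA subtracts background, gives all arrays one distribution, which removes any change shared by most transcripts, and combines the probes of a set. Depth does not apply to arrays, and the number of arrays limits the precision.

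Probe sets were named through the platform's probe table. Those with exactly 1 symbol (23521) were used, those with several (1820) or none (16004) were not. Where a gene had several (1082 genes), the brightest over all arrays was kept, which left 22180 genes, with no filter on signal. Groups were compared in R 4.3.3 with limma 3.58.1 (functions lmFit and eBayes, 4 residual degrees of freedom, Benjamini-Hochberg adjustment over all genes, threshold 0.05), which was tested on simulated data first. Exact permutation of 3 arrays against 3 cannot give a p under 0.1 and was not used. Intervals are 95% intervals from limma, and its p-values rest on the spread between these samples.

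The members and gene lists were chosen with earlier results of these data known, and lists are described by counts and medians only. Members with an unadjusted p under 0.05, with groups that do not overlap or with the highest mean of their role are given by array. In other lists, called genes and up to 4 of the largest changes without overlap are named. Markers, Itgb1, Mmp9 and the printed promoter windows, which no adjusted p chose, were picked after values were seen. Promoter windows came from RefSeq (GRCm38.p6), in which 23 of the 33 members matched. Motifs were searched on both strands.

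The alternatives tried were quantile normalization once more, arrays centred on their medians, the 33.3% of genes of lowest signal removed, probe sets averaged per gene or kept apart, array weights, a robust fit with a variance trend, a replicate block, a threshold of 0.1, analysis of variance (adjusted, or at the study's unadjusted p under 0.01 and 1.5-fold) and each array left out. Figures were drawn with matplotlib 3.10.9 in Python 3.11.15.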

Additional observations from a re-analysis of the deposited data

How the results depend on the processing

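Each group held 3 arrays, and 10 of the 33 members lay at or below background. All genes called numbered 45 higher and 11 lower. These counts were 116 and 40 with the 33.3% of genes of lowest signal removed, 307 and 213 with a variance trend and robust fitting, 4 and 3 by analysis of variance with adjustment, 76 and 22 at an adjusted p under 0.1, 52 and 7 after centring of arrays, and 0 and 0 with the replicate number as a block, where 2292 genes had an unadjusted p under 0.05. The members called higher, 0 by limma, were 3 with the low genes removed, 4 with the variance trend and 1 by analysis of variance, and 0 under the other alternatives. No member was called lower under any of them. Removal of low genes leaves fewer genes to adjust over, and the fit was also made anew on the genes left. The cause of the difference was not tested for any setting.

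Deviations of same-numbered arrays from their group means had correlations of −0.01, 0.07 and 0.10 for replicates 1, 2 and 3. Those between arrays of different numbers were −0.12 to 0.05. With 3 arrays per group these values cannot decide whether the numbers are a pairing. With the block Mmp2, Col3a1, Col6a3 and Acta2 had a limma adjusted p of 0.164 to 0.172.

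Members lower at an unadjusted p under 0.05, 0 in the reported fit, were 1 with low genes removed, with the variance trend and by analysis of variance, and 2 with the replicate block. Members higher at that p were 6 or 7 under all of these. In both directions together, 2114 of 14786 genes had such a p with low genes removed. Of all 22180 genes 2775 had it with the variance trend, 2339 by analysis of variance and 2292 with the replicate block. With each array left out, 0 to 4 genes were called higher and 0 lower, and 5 to 6 of the 33 members were higher and 0 to 2 lower before adjustment. Of all 22180 genes 1802 to 2140, in both directions together, then had an unadjusted limma p under 0.05. The median change of the members was 0.0347 to 0.0637. With each array left out, members without overlap numbered 7 to 12 of 33 above and 4 to 7 of 33 below. The most lay above without control replicate 1 and below without RKIP knockdown replicate 3. Of all 22180 genes 2672 to 3219 (12% to 14.5%) lay above and 2831 to 3256 (12.8% to 14.7%) below. Centring of arrays gave 10 of 33 above and 2 of 33 below, beside 10.8% and 6.0% of all genes, and a median of 0.0679. It adds 0.02 to every change.

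Changes near 0 turned sign. Col4a4 had a change of 0.0127 after a second quantile normalization and 0.0114 after centring, Lama1 one of 0.0270 and 0.0161, Lama4 one of 0.0062 after centring and Lamc3 one of −0.0033 with array weights. With each array left out, the changes ran from −0.146 to 0.0834 for Col4a3, −0.0471 to 0.0406 for Col4a4, −0.0340 to 0.153 for Col4a6, −0.0226 to 0.0207 for Lama1, −0.0433 to 0.107 for Lama2, −0.0752 to 0.0296 for Lama4, −0.126 to 0.122 for Lamc3, −0.0745 to 0.0350 for Fras1, −0.164 to 0.0327 for Frem2 and −0.0717 to 0.0970 for Ntn4. The other members kept the sign of their change under each alternative that included them. Removal of low genes left out Lama1, Lama2, Lama4, Fras1, Frem1, Frem2 and Ntn4.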

Other observations

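Related members were also compared within each array, a comparison chosen after the values were seen and not tested. The difference between Ntn1 and Ntn4 was 3.52, 3.70 and 3.74 on the RKIP knockdown arrays and 3.34, 3.43 and 3.05 on the control arrays, which do not overlap. That between Nid2 and Nid1 was 0.39, 0.47 and 0.63 in the RKIP knockdown and 0.39, 0.37 and 0.17 in the control knockdown, where the lowest knockdown and highest control values nearly met. That between Col8a1 and Col8a2 was 4.62, 4.39 and 4.50 in the RKIP knockdown and 4.30, 3.99 and 4.26 in the control knockdown, again without overlap. The chain that lay lower in the last pair and Ntn4 both read near or below background. For Sparcl1 and Sparc the differences overlapped between the groups, and the change of the difference was 0.22 (standard error 0.13).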
